A study of Mus musculus with 2 samples.

Results

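CD4+ T cells without *Foxp3* transcripts, the conventional helper T cells, were examined among CD45+ cells of the mouse thalamus after cortical ablation injury (CAI), the surgical removal of sensory and motor cortex on 1 side. The 2 libraries came from C57B6/J mice that had all undergone CAI and had then received antibody into the thalamus through a cannula. The first library came from mice given control Ab (normal rat IgG) and the second from mice given anti-CD9 Ab, both at 1.0 μg/μl from day 7 to day 19 after CAI, with collection on day 21. Mice were 12 weeks old and, in most experiments, female, the sex for these libraries not being given in the sources used here. Live CD45+ cells of the thalamus on the injured side were sorted. The methods state 4 pooled mice per library for thalamic samples and do not repeat that number for the antibody groups. There was 1 library per antibody, so that no test was possible, and antibody, pool of mice and library cannot be told apart. Intervals are 95% and cover counting error only.

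A cell was counted as a Foxp3-negative CD4 T cell when it had 2 or more UMIs (counted mRNA molecules) of *Cd3d*, *Cd3e* and *Cd3g* together, 1 or more of *Cd4*, and 0 of *Foxp3*, *Trdc*, *Cd8a* plus *Cd8b1*, and *Csf1r*. Cells with 200 to 7500 detected genes and at most 5% mitochondrial UMIs were eligible. The rule found 718 of 11690 kept cells in the control Ab library and 511 of 14455 in the anti-CD9 Ab library, 1229 of 26145 in all. The cells were thus chosen by their counts of these genes, whose values describe the rule and are not results. The cells held 1678387 and 1513652 UMIs, with medians of 1821.5 and 2452 UMIs and 1144 and 1408 genes per cell in the control Ab and anti-CD9 Ab libraries, respectively.

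Helper T cells recognise peptides on MHC class II through an αβ T cell receptor, with CD4 as coreceptor and CD28 and ICOS as costimulatory receptors. Their main forms are known by transcription factors and cytokines, among them Th1 cells by *Tbx21* and *Ifng*, Th2 cells by *Gata3* and *Il4*, Th17 cells by *Il17a*, and follicular helper cells by *Bcl6* and *Il21*. Regulatory T cells carry *Foxp3*. The brain parenchyma holds few T cells at rest, and after injury T cells enter and can persist there.

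Foxp3-negative CD4 T cells made up 6.14% (5.71 to 6.59%) of the kept cells in the control Ab library. In the anti-CD9 Ab library they made up 3.54% (3.24 to 3.85%), which differs by -2.61 points (-3.14 to -2.08). With a minimum of 2 *Cd4* UMIs these cells made up 1.38% and 1.20%, a much smaller gap. The order was the opposite among CD3 cells without *Csf1r*, where they were 12.6% (11.7 to 13.5%) of 5705 cells and 16.8% (15.5 to 18.2%) of 3033 cells, a difference of 4.26 points (2.70 to 5.87). All CD3 cells without *Csf1r* were 48.8% and 20.98% of kept cells, in the same order of libraries. Among CD3 cells, γδ T cells (*Trdc*) were 41.3% and 35.4%, CD8 T cells 9.55% and 9.23%, and Foxp3-positive CD4 T cells 0.701% and 0.758%. The shares are of sorted CD45+ cells, whose other members differed as well: a neutrophil rule took 0.231% and 7.17% of kept cells and a B cell rule 1.57% and 4.84%.

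**Figure D1:**
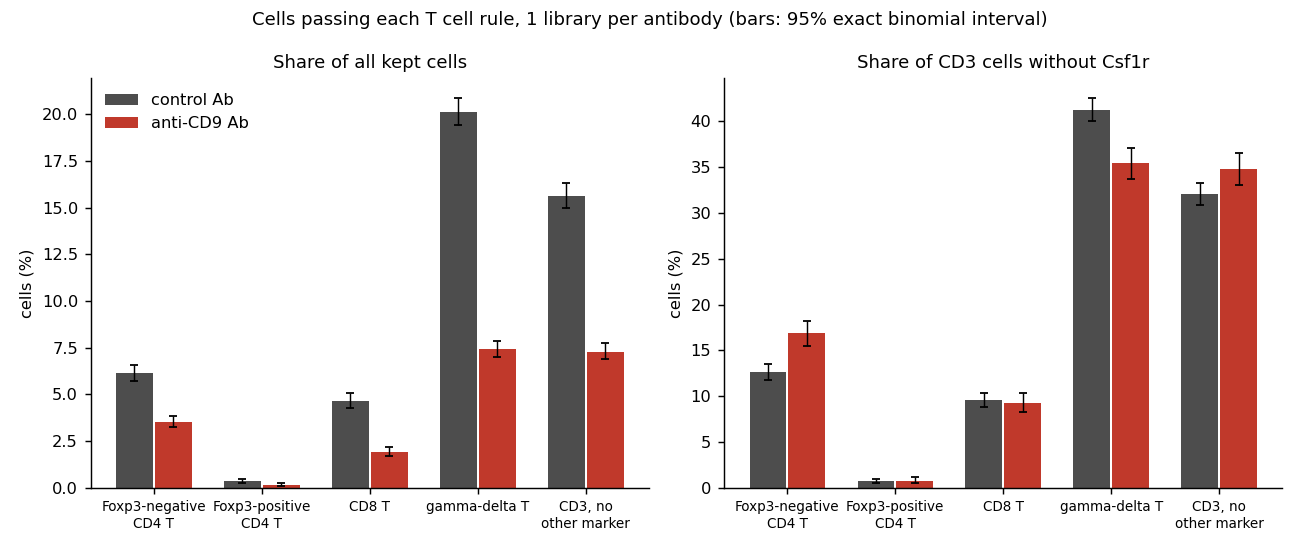
Cells that passed each T cell rule as a percentage of all kept cells (left) and of CD3 cells without Csf1r (right), by library, with 95% exact binomial intervals as bars. Foxp3-negative CD4 T cells were a smaller share of all kept cells with anti-CD9 Ab (3.54% against 6.14%) and a larger share of CD3 cells (16.8% against 12.6%).

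Most cells stood near the edge of the rule. With control Ab, 557 of 718 cells had exactly 1 *Cd4* UMI and 53 had exactly 2 CD3 UMIs, and with anti-CD9 Ab the counts were 338 and 28 of 511. Just outside were 29 and 16 cells with 1 CD3 UMI, 30 and 14 with 1 *Foxp3* UMI, and 37 and 26 with 1 *Csf1r* UMI. A further 1830 and 1055 CD3 cells had none of the lineage genes, so that CD4 T cells whose *Cd4* was missed can lie among them. The kept cells with at least 1000 UMIs (10065 and 10812 cells) were also thinned to 1000 UMIs before the rule. The share was then 3.68% and 2.05% of these cells, and 7.62% and 9.22% of the CD3 cells among them. The libraries shared 54 barcodes, none of them among Foxp3-negative CD4 T cells.

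The markers set these cells apart from γδ T cells and B cells. *Trac*, the constant region of the T cell receptor α chain, stood at 888 CPM (counts of the summed cells scaled to a common total) in the control Ab library and 823 CPM in the anti-CD9 Ab library, against 148 and 117 CPM in γδ T cells. *Cd28* stood at 307 and 325 CPM against 18.6 and 9.28 CPM in γδ T cells, and *Cd5*, an inhibitor of receptor signalling, at 408 and 326 CPM against 44.5 and 36.3 CPM. *Icos* separated the cells less from γδ T cells (664 and 669 CPM against 367 and 404 CPM) than from CD8 T cells (152 and 119.9 CPM). After thinning to 1000 UMIs, *Trac* was found in 59.2% of 674 cells and 54.8% of 502 cells, and *Cd28* in 28.3% and 27.7%. In B cells these shares were 0.585% and 0% (no cell) for *Trac* and 5.26% and 0.596% for *Cd28*. The nearest T cells were separated less. Thinned CD8 T cells had *Cd28* in 17.0% and 16.7%. They had *Cd5* in 13.1% and 8.52%, against 32.0% and 25.7% in Foxp3-negative CD4 T cells. *Trac* was found in 50.5% and 45.6% of thinned CD8 T cells and in 76.9% and 43.5% of thinned Foxp3-positive cells (39 and 23 cells), and *Cd28* in 33.3% and 52.2% of the latter.

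**Figure D2:**
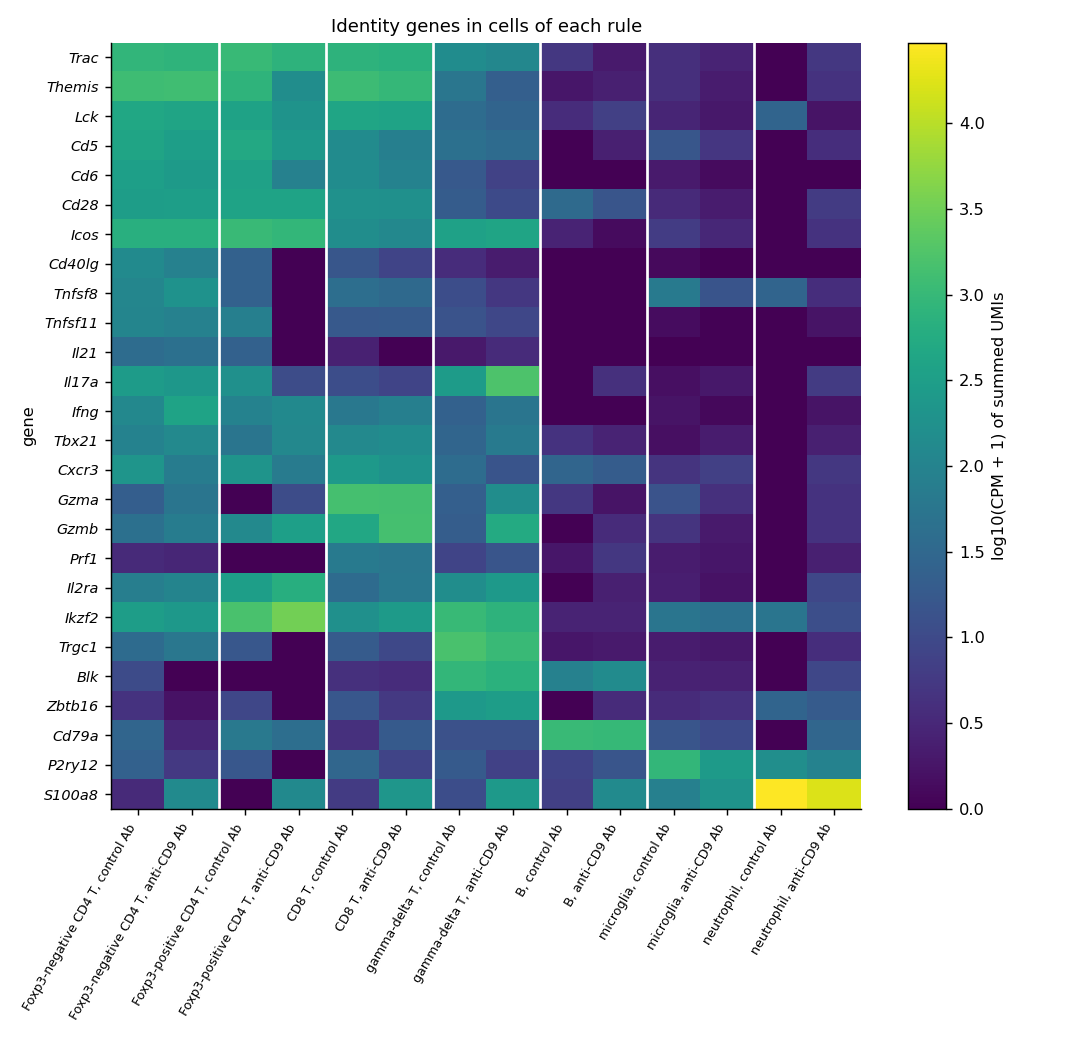
Level of 26 identity genes as log10(CPM + 1) of summed UMIs (colour) in cells of each rule, with the control Ab library left and the anti-CD9 Ab library right in each pair. Trac, Themis, Cd6 and Cd28 were high in both libraries of Foxp3-negative CD4 T cells and low in γδ T cells, and Blk and Zbtb16 showed the opposite pattern.

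Genes of γδ T cells were nearly absent. *Blk*, a kinase of IL-17-producing γδ T cells, stood at 9.53 and 0 CPM against 909 and 719 CPM in γδ T cells, and *Zbtb16* at 3.57 and 0.661 CPM against 259 and 311 CPM. *Scart1*, a scavenger receptor of γδ T cells, was at 11.3 and 1.98 CPM against 2072 and 1487 CPM. In both libraries, 215 of 8400 genes (2.56%) were 2-fold or more higher than in γδ T cells and 245 (2.92%) 2-fold or more lower. The 10 genes most above γδ T cells were led by *Cd40lg*, the ligand by which helper T cells activate B cells and myeloid cells (135 and 90.5 CPM against 2.73 and 1.16 CPM). They also included *Themis*, which tunes receptor signalling in αβ T cells (1191 and 1245 CPM against 55.2 and 21.5 CPM), *Cd6*, *Trat1*, *Izumo1r* and *Cd28*, with log2 differences of 4.04 or more in each library.

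The difference from CD8 T cells lay in helper ligands and cytokines on the one side and cytotoxic genes on the other. *Il21*, a cytokine of follicular helper and other CD4 T cells, stood at 37.5 and 42.9 CPM against 1.62 CPM and no UMI in CD8 T cells. *Tnfrsf4*, which encodes the costimulatory receptor OX40, was at 202 and 244 CPM against 12.2 and 19.4 CPM, and *Il17a* at 280.0 and 233 CPM against 10.5 and 7.38 CPM. In the other direction, *Gzma* was at 20.3 and 54.2 CPM against 1406 and 1339 CPM, *Prf1* (perforin) at 2.38 and 1.98 CPM against 66.5 and 59.0 CPM, and *Gzmb* at 43.5 and 75.3 CPM against 470 and 1424 CPM. *Eomes* had no UMI in either library. In both libraries, 164 of 6550 genes (2.5%) were 2-fold or more higher than in CD8 T cells and 67 (1.02%) 2-fold or more lower.

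Foxp3-positive CD4 T cells numbered 40 and 23, so that their values rest on few cells. The genes most below them in both libraries included members of the regulatory program other than *Foxp3*: *Ikzf2*, which encodes Helios (309 and 238 CPM against 1543 and 3279 CPM), *Ikzf4* (25.0 and 25.1 CPM against 125 and 132 CPM), *Tnfrsf9* (42.3 and 87.2 CPM against 187 and 873 CPM) and *Il2ra*, the high-affinity IL-2 receptor chain (81.0 and 101 CPM against 319 and 639 CPM). Of those most above them, *Bcl2*, an inhibitor of cell death, was at 337 and 277 CPM against 77.9 and 71.1 CPM. *Tnfsf8*, the CD30 ligand, was at 109.6 and 189.6 CPM against 23.4 CPM and no UMI. In both libraries, 81 of 5132 genes (1.58%) were 2-fold or more higher than in Foxp3-positive cells and 39 (0.76%) 2-fold or more lower. *Il2ra* or *Ikzf2* was nevertheless found in 213 of the 718 and 162 of the 511 Foxp3-negative cells, and *Foxp3* can be missed at this depth.

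Against all other kept cells, 632 of 13253 genes (4.77%) were 2-fold or more higher in both libraries and 1771 (13.4%) 2-fold or more lower. The genes most above in both libraries were led by *Gm12171*, *Il21*, *Ccr8*, *Penk*, *Trat1*, *Cd40lg*, *Slamf1*, *Vipr2* and *Tnfsf11*. *Penk*, which encodes proenkephalin, stood at 34.6 and 70.0 CPM against 4.19 and 8.59 CPM elsewhere. *Tnfsf11* (RANKL) stood at 106 and 90.5 CPM against 14.6 and 6.14 CPM, and *Slamf1* at 205 and 176 CPM against 27.9 and 21.02 CPM.

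Genes of several helper programs were found, and most cells had neither *Ifng* nor *Il17a*. At full depth *Ifng* was found in 121 of 718 cells of the control Ab library (16.9%, 14.2 to 19.8%) and in 112 of 511 cells of the anti-CD9 Ab library (21.9%, 18.40 to 25.8%). *Il17a* was found in 86 cells (12.0%, 9.69 to 14.6%) and 51 cells (9.98%, 7.52 to 12.9%). Both cytokines were in 14 and 7 cells, and neither was in 525 and 355. After thinning to 1000 UMIs, the *Ifng* share was 9.79% and 10.6% (difference 0.766 points, -2.68 to 4.38) and the *Il17a* share 8.61% and 6.97% (-1.63 points, -4.67 to 1.56), neither difference larger than counting error. B cells had *Ifng* in 0% and *Il17a* in 0% and 0.149% of thinned cells.

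Transcription factors of several programs were found, with shares close between the libraries. *Tbx21* (T-bet) was found in 9.50% and 8.96% of thinned cells and *Gata3* in 4.90% and 5.18%. In CPM, *Bcl6* stood at 92.9 and 95.1 and *Gata3* at 64.3 and 58.8. *Gata3* came without Th2 cytokines: *Il4*, *Il5*, *Il13* and *Il9* and the Th2 receptor *Ptgdr2* had no UMI in either library, 0 of 718 and 0 of 511 cells, which at 3 counts of the total allows shares of cells with a UMI of up to 0.418% and 0.587%. *Cxcr5*, the receptor that places follicular helper cells in B cell follicles, stood at 5.96 and 7.27 CPM, on 21 UMIs in all.

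**Figure D3:**
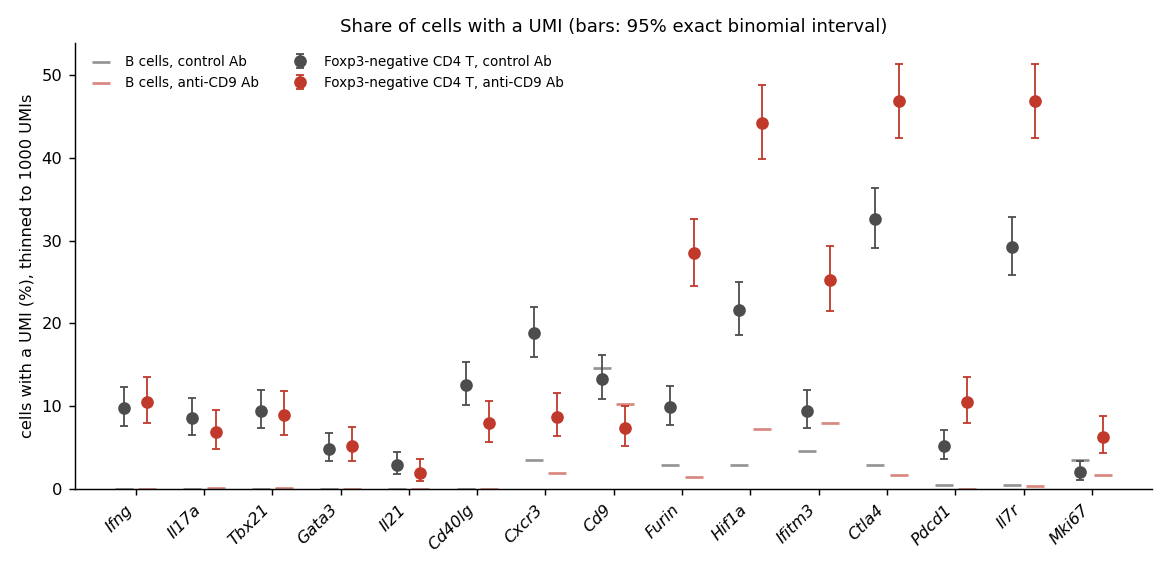
Share of Foxp3-negative CD4 T cells with a UMI of each gene after thinning each cell to 1000 UMIs (points, 674 control Ab and 502 anti-CD9 Ab cells), with 95% exact binomial intervals. Dashes are the same share in B cells. The helper genes Ifng, Il17a, Tbx21 and Gata3 overlap between libraries, whereas Furin, Hif1a, Ifitm3, Ctla4 and Il7r are higher and Cxcr3 lower with anti-CD9 Ab.

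Cells with *Ifng* but not *Il17a* (107 and 105 cells) and cells with *Il17a* but not *Ifng* (72 and 44) carried different companions, given here as a description because the cytokines themselves chose the cells. *Nkg7*, a cytotoxic granule gene, stood at 685 and 1104 CPM in the *Ifng* cells against 167 and 7.29 CPM in the *Il17a* cells, and *Ccl5* at 1386 and 1101 CPM against 185 and 160.4 CPM. *Tbx21* followed, at 140 and 244 CPM against 65.5 and 51.0 CPM. In the *Il17a* cells, *Tmem176b* was at 584 and 474 CPM against 211 and 184 CPM, and *Il1r1*, the IL-1 receptor, at 250 and 219 CPM against 19.5 and 76.0 CPM. *Il21* ran with *Ifng*, at 117 and 107.5 CPM against 35.7 and 43.7 CPM. Both libraries had the same order for each of these genes.

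The comparison of anti-CD9 Ab with control Ab asked which transcripts of these cells differed with the antibody. Of 7624 genes with 50 or more UMIs over both libraries, 200 (2.62%) were 2-fold or more higher with anti-CD9 Ab and 192 (2.52%) 2-fold or more lower, together 5.14%. By any amount, 47.9% were higher and 52.1% lower, and the median log2 ratio over all of them was -0.02. A fold of a gene can rest on a single cell, so the cells behind it are given. Without the cell with most UMIs of the gene in each library, 5 of the 200 and 6 of the 192 were no longer past 2-fold. Among the 58 and 35 such genes with 200 or more UMIs, it was 2 and 2.

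**Figure D4:**
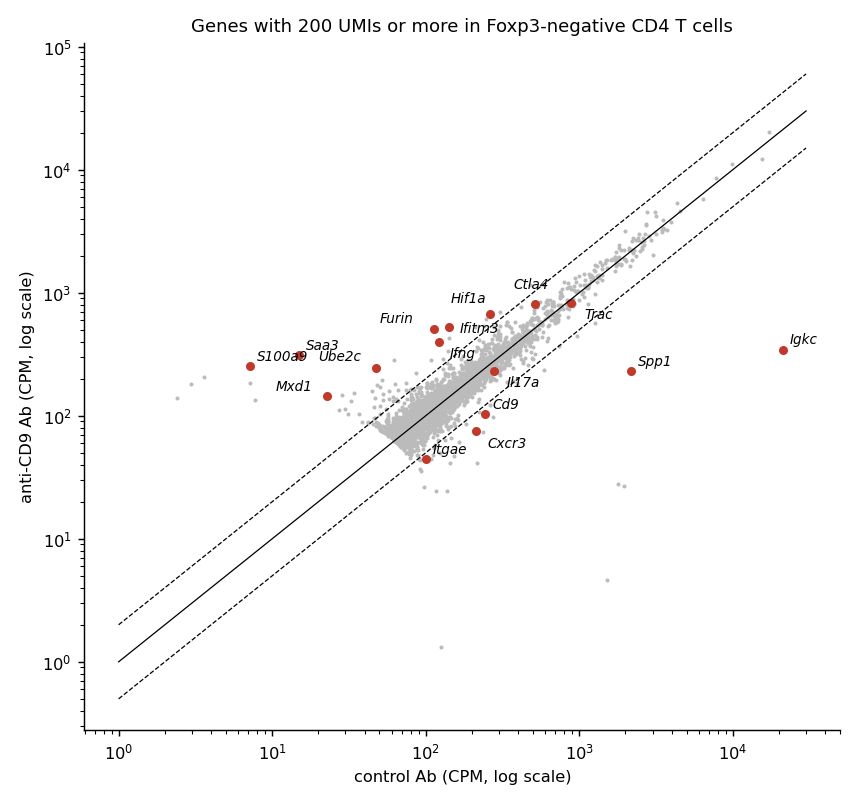
Level of each gene with 200 or more UMIs in Foxp3-negative CD4 T cells, control Ab (x) against anti-CD9 Ab (y), both in CPM on log axes, with the solid line at equality and dashed lines at 2-fold. Trac and Il17a lie within the 2-fold lines, Furin, Hif1a, Ifitm3 and Ifng above them, Cxcr3, Itgae and Cd9 below, and Igkc and Spp1 far below.

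The 10 largest increases and decreases among genes with 200 or more UMIs were mostly genes known from other cell types. On the higher side stood *Cxcl2*, *S100a8*, *Lcn2*, *S100a9*, *Ttr*, *Saa3*, *Acod1*, *Mxd1*, *Dgat1* and *Ube2c*. *S100a9*, a calcium-binding protein of neutrophils, went from 7.15 to 252 CPM, with UMIs in 11 of 718 and 87 of 511 cells. Of the list of 14 neutrophil genes, 5 passed 50 UMIs over both libraries. They could pass largely through the anti-CD9 Ab library (*S100a9* had 12 and 382 UMIs), so that their shared direction is not a result. The list summed to 44.1 CPM and 861 CPM. The same list summed to 66.5 and 1145 CPM in CD8 T cells, 70.4 and 1200 CPM in γδ T cells, and 51.9 and 776 CPM in B cells. *Csf3r* and *Cxcr2*, which mark neutrophils, stood at 9.53 and 17.8 CPM (0.90, -0.04 to 1.89) and at 0.596 and 6.61 CPM (1 and 10 UMIs) in the CD4 cells, and at 1571 and 1839 CPM and at 399 and 761 CPM under the neutrophil rule. Of *Ttr* (transthyretin, a choroid plexus product), 92.1% of the UMIs with anti-CD9 Ab came from 1 cell. The part of free RNA or of other cells in these genes was not tested.

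On the lower side stood *Ighg2c*, *Mzb1*, *Igha*, *Jchain*, *Igkc*, *Spp1*, *Lsamp*, *Pcdh9*, *Magi2* and *Nkain2*, that is plasma cell, microglial and neural genes. With control Ab, 5 cells with 50 or more immunoglobulin UMIs held 43654 of the 44912 immunoglobulin UMIs, and the most in any cell with anti-CD9 Ab was 146. Of the list of 16 B and plasma cell genes, 7 of the 9 with 50 UMIs were past 2-fold lower (2.52% over all genes). The list summed to 26598 and 1319 CPM, with *Igkc* the most abundant. *Spp1*, a microglial gene after injury, went from 2169 to 230 CPM and was found in 558 of 718 and 134 of 511 cells. The list of 20 microglia and macrophage genes summed to 6470.5 and 2684 CPM, with *Spp1* the most abundant, and of the 14 genes with 50 UMIs 8 were past 2-fold lower and *Saa3* past 2-fold higher, while *Tmem119* stood at 5.96 and 5.95 CPM. *Csf1r* is at 0 by the rule. The 12 neural genes summed to 358 and 158 CPM. Cells with 10 or more UMIs of *H2-Aa*, *H2-Ab1* and *Cd74*, genes of antigen-presenting cells, numbered 25 and 7. The part of these cells in the results was seen only by leaving them out together with the cells with 50 or more immunoglobulin UMIs. Shares, gene counts, list medians and some ratios without both are given with the processing alternatives.

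*Hif1a*, *Furin*, *Mxd1* and *Dgat1* were each past 2-fold higher with anti-CD9 Ab. *Hif1a*, the transcription factor of the response to low oxygen, stood at 263 CPM in the control Ab library and 675 CPM in the anti-CD9 Ab library (log2 ratio 1.36, 1.20 to 1.52). It was found in 287 of 718 and 334 of 511 cells, and in 21.7% and 44.2% of thinned cells, a difference of 22.6 points (17.2 to 27.8). *Furin*, a proprotein convertase induced in activated T cells and singled out after its values were seen, went from 113 to 509 CPM (2.17, 1.94 to 2.40), and from 9.94% to 28.5% of thinned cells (18.5 points, 14.0 to 23.1). *Furin* was also found more often with anti-CD9 Ab in thinned CD8 T cells (4.57% and 10.4%, 5.80 points, 2.03 to 10.3), γδ T cells (11.6% and 20.04%, 8.41 points, 5.63 to 11.3) and cells of the microglia rule (3.76% and 7.17%). Foxp3-positive cells went the other way, with 7 of 39 and 0 of 23 cells (17.9% and 0%, exact upper limit 14.8%; -17.9 points, -32.7 to -1.06). Under the neutrophil rule (13 and 723 cells), *Furin* was found in 15.4% and 24.1% and *Hif1a* in 7.69% and 24.9%. In thinned B cells, *Hif1a* was found in 2.92% and 7.30% and *Furin* in 2.92% and 1.49%. In CD8 T cells the log2 ratio of *Hif1a* was 1.05 and in γδ T cells 1.11. *Mxd1*, an antagonist of MYC, went from 22.6 to 145 CPM (2.68, 2.17 to 3.21), and *Dgat1*, an enzyme of triglyceride synthesis, from 28.6 to 149 CPM (2.38, 1.92 to 2.86), found in 34 and 104 and in 45 and 132 cells. *Mxd1* and *Dgat1* stood among the largest increases beside neutrophil genes, and the part of free RNA or of other cells in them was not tested.

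All 20 measured genes of the cell cycle list were higher with anti-CD9 Ab, 17 of them past 2-fold, with a median log2 ratio of 1.52 against -0.02 over all genes. The list median was 0.98 after thinning, 1.00 with *Il2ra* and *Ikzf2* also at 0, and 2.31 with a minimum of 2 *Cd4* UMIs. *Cdk1*, the mitotic kinase, stood at 16.7 and 92.5 CPM (2.47, 1.88 to 3.11), *Ccnb1* (cyclin B1) at 9.53 and 49.5 CPM, and *Ube2c*, which helps degrade the cyclins, at 47.7 and 244 CPM (2.35, 2.00 to 2.72). The 3 genes under 2-fold were *Mcm6*, a subunit of the replication helicase (72.7 and 86.5 CPM), *Pcna*, the clamp of DNA polymerase (79.2 and 106 CPM), and the most abundant gene of the list, *Tubb5* (504 and 725 CPM). Other replication genes were past 2-fold, such as *Mcm3*, also of the helicase (28.0 and 58.1 CPM), and *Tyms*, which makes thymidylate (17.9 and 58.8 CPM). Cells with 10 or more UMIs of the list numbered 19 of 718 (2.65%, 1.60 to 4.10%) and 45 of 511 (8.81%, 6.50 to 11.6%), and after thinning 1.04% and 5.18%. *Mki67* was found in 2.08% and 6.37% of thinned cells (4.30 points, 2.01 to 6.92). In B cells, which can cycle themselves, the *Mki67* shares were 3.51% and 1.79%, and under the microglia rule 0.299% and 1.802%. The list summed to 1275 and 2873 CPM here, 1010 and 4024 CPM in CD8 T cells, 712 and 2991 CPM in γδ T cells, 1457 and 3928 CPM in Foxp3-positive cells, 817 and 1133 CPM in B cells, and 581 and 748 CPM under the microglia rule. It was thus higher in the anti-CD9 Ab library under each of these rules. Under the neutrophil rule it was 1943 and 222 CPM.

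Promoters of the cell cycle list were examined for the pentamer CCAAT, the box bound by NF-Y, on either strand, a motif chosen after the expression values were seen. It was present in 15 of the 18 genes with a RefSeq promoter (83.3%), against 41.1% of all gene symbols, in windows from 250 bases before to 50 bases after the start site. TTTGAA, a core of the CHR element, was present in 6 of the 18 (33.3%) against 20.2%, all 6 of which also held CCAAT. The 3 promoters shown, 120 bases before to 20 after the start site, belong to cell cycle genes with more than 1 box in this window. Capitals mark CCAAT or its reverse complement ATTGG, in GRCm38.p6, read on the strand of the gene.
*Cdk1*, chr10:69352893-69353032, minus strand: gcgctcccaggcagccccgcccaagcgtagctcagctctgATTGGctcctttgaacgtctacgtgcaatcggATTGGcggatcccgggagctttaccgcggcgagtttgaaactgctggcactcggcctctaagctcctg
*Ccnb2*, chr9:70421535-70421674, minus strand: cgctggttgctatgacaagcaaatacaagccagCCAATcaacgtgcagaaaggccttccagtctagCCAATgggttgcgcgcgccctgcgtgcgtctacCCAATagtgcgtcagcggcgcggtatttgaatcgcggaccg
*Ube2c*, chr2:164769809-164769948, plus strand: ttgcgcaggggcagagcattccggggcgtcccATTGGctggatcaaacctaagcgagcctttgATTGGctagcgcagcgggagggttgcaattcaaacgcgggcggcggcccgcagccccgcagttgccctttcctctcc
A match describes the letters and not binding. In these windows *Cdk1* held 2 boxes, *Ccnb2* 3 and *Ube2c* 2.

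Several receptors that restrain T cells were higher, though not all. *Ctla4*, which competes with CD28 for its ligands, stood at 514 and 811 CPM (0.66, 0.53 to 0.79) and was found in 32.6% and 46.8% of thinned cells (14.2 points, 8.53 to 19.7). *Pdcd1* (PD-1) was at 60.8 and 143 CPM (1.23, 0.89 to 1.59), *Havcr2* (TIM-3) at 45.9 and 96.5 CPM and *Tigit* at 10.7 and 31.7 CPM. *Tigit* passed the filter of 50 UMIs largely through the anti-CD9 Ab library. Over all genes compared, 47.9% were higher and 2.62% past 2-fold higher. Of the 11 inhibitory receptor genes with 50 UMIs, 7 were higher and 4 lower, 3 of them past 2-fold higher, with a median of 0.66. *Nt5e*, *Btla* and *Vsir* had the lowest ratios (-0.27, -0.22 and -0.20). Among the 13 costimulation genes, *Slamf6* (31.0 and 104 CPM) and *Tnfrsf9*, which encodes 4-1BB (42.3 and 87.2 CPM), were past 2-fold higher, while *Icos*, the most abundant, had a ratio of 0.01 (-0.11 to 0.14) and *Cd40lg* was lower (-0.58, -0.90 to -0.27). The *Tnfrsf9* ratio ended under 2-fold in several alternatives, such as 0.90 without cells carrying other lineages. The 19 receptor signalling genes all stayed under 2-fold, with a median of -0.04. *Cd3e* had the lowest ratio (-0.39) and *Cd3d* the highest (0.31), and both belong to the rule. In thinned γδ T cells, *Ctla4* was found in 5.44% and 16.1% (10.6 points, 8.23 to 13.2), *Pdcd1* in 10.7% and 22.4%, and *Tnfrsf9* in 1.59% and 10.3%. In thinned CD8 T cells, *Ctla4* was found in 11.6% and 16.3% (4.68 points, -0.28 to 10.1) and *Pdcd1* in 6.67% and 9.63% (2.96 points, -0.90 to 7.46).

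**Figure D5:**
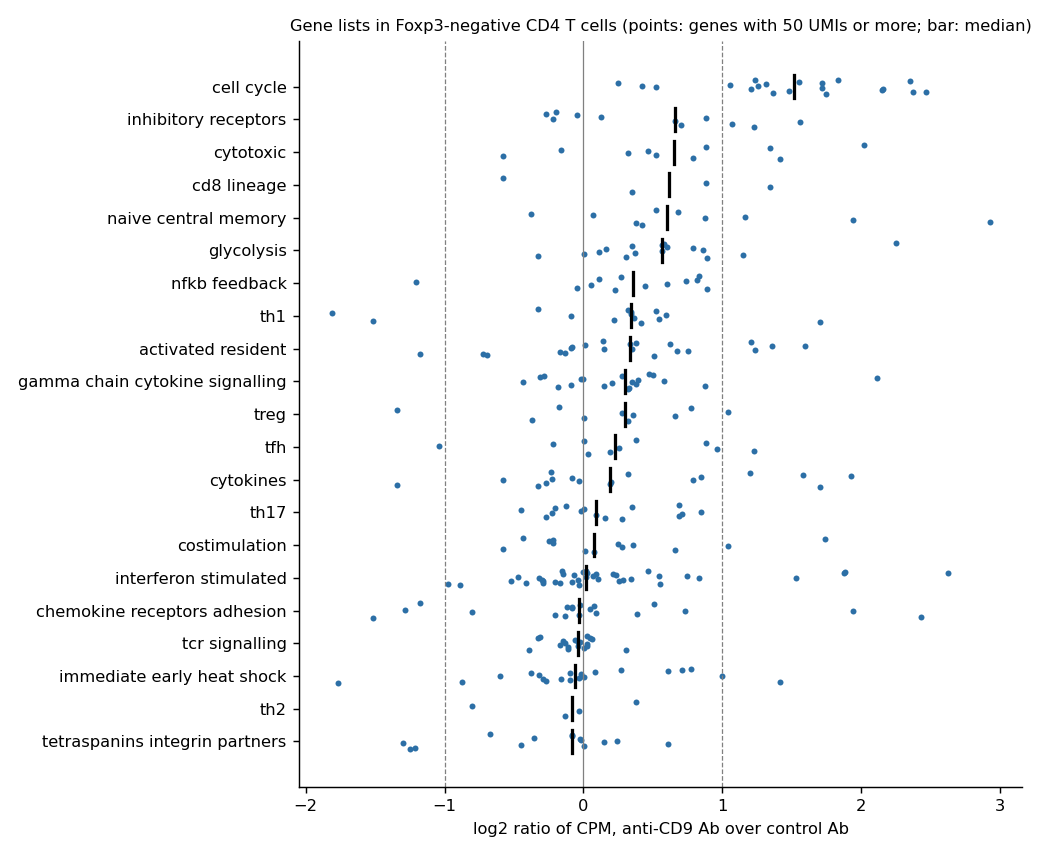
Log2 ratio of CPM (anti-CD9 Ab over control Ab) of each gene with 50 or more UMIs in 21 gene lists, with the median of each list as a bar and dashed lines at 2-fold. The cell cycle list lies to the right, with a median of 1.52, and the receptor signalling list close to 0, with a median of -0.04.

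Of the 10 genes of naive and central memory cells with 50 UMIs, 9 were higher, 3 of them past 2-fold, with a median of 0.60. Over all genes these shares were 47.9% and 2.62%. *Klf2*, which keeps T cells in circulation, stood at 8.34 and 63.4 CPM (2.93, 2.11 to 3.85), *S1pr1*, the receptor for exit from tissue, at 8.94 and 34.4 CPM (1.94, 1.09 to 2.88) and *Satb1* at 241 and 541 CPM (1.16, 0.99 to 1.34). *Klf2* and *S1pr1* passed the filter of 50 UMIs largely through the anti-CD9 Ab library, so that the count past 2-fold leans on the filter. *S1pr1* was found in 1.04% and 3.39% of thinned cells here and in 2.34% and 8.05% of thinned B cells. The summed level of the naive and central memory list was 1988 and 2979 CPM here, 2228 and 3827 CPM in Foxp3-positive cells, 2063 and 2611 CPM in CD8 T cells, 759 and 2248 CPM in B cells and 2238 and 2172 CPM in γδ T cells. *Il7r*, the IL-7 receptor, was found in 29.2% and 46.8% of thinned cells (17.6 points, 12.0 to 23.1). Of 21 genes of activated and resident cells, 14 were higher and 7 lower (47.9% higher over all genes), with a median of 0.33. *Hif1a*, *Crem*, *Nr4a3* and *Lgals1* were past 2-fold higher and *Itgae* past 2-fold lower. Among 19 chemokine receptor and adhesion genes, 2 were past 2-fold higher (*Cxcr4* and *S1pr1*) and 3 lower (*Cxcr3*, *Ptger4* and *Itgae*), with a median of -0.03. Over all genes these shares were 2.62% and 2.52%. *Cxcr4*, like *S1pr1*, passed the filter of 50 UMIs largely through the anti-CD9 Ab library. *Cxcr4* was at 9.53 and 51.5 CPM (2.43, 1.65 to 3.31). *Cxcr3*, a receptor for interferon-induced chemokines, stood at 213 and 74.7 CPM (-1.51, -1.83 to -1.21), in 250 of 718 and 94 of 511 cells. After thinning its share was 18.8% and 8.76% (-10.1 points, -13.9 to -6.14), against 3.51% and 1.94% in B cells. It was also lower in thinned CD8 T cells (22.7% and 14.8%, -7.85 points, -13.2 to -2.04) and γδ T cells (3.002% and 1.32%, -1.68 points, -2.66 to -0.55). *Itgae*, which encodes CD103, was at 100.1 and 44.3 CPM (-1.18, -1.61 to -0.76) and *Cd69* at 163 and 101 CPM (-0.69, -0.99 to -0.40). *S1pr1*, *Klf2* and *Cxcr4* rest on 67, 110 and 94 UMIs. *Cxcr6*, the most abundant of the chemokine receptor list, was at 829 and 754 CPM (-0.14, -0.25 to -0.02).

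Of the 14 Th1 genes, *Ifng* was past 2-fold higher and *Cxcr3* and *Ly6c2* past 2-fold lower, with a median of 0.34. *Ifng* stood at 122 and 398 CPM (1.70, 1.47 to 1.94), but the thinned shares of cells with it differed by less than counting error, and 32.4% of its UMIs with anti-CD9 Ab came from 1 cell. Cells with 5 or more *Ifng* UMIs numbered 7 and 15. Without the top cell of each library the ratio was 1.23, and it was under 2-fold with at most 2% mitochondrial UMIs (0.89), as a mean over cells (0.92) and after thinning (0.90). In *Ly6c2*, 51.0% of the control Ab UMIs came from 1 cell, and without the top cells its ratio was -0.95. *Tbx21* was at 95.9 and 128 CPM (0.42, 0.11 to 0.73) and *Tnf* at 228 and 182 CPM (-0.33, -0.56 to -0.10). *Il2* had 6 and 3 UMIs.

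The 15 measured Th17 genes all stayed under 2-fold, with a median of 0.09. *Il17a* was at 280.0 and 233 CPM (-0.27, -0.47 to -0.07), with 26.4% and 21.02% of its UMIs in 1 cell of each library, whereas in γδ T cells its log2 ratio was 2.56. The *Il17a* ratio moved to -2.12 with at most 2% mitochondrial UMIs and to 0.05 without cells carrying other lineages. *Batf*, a factor of Th17 differentiation, was at 102 and 184 CPM (0.85) and *Il1r1* at 57.2 and 93.8 CPM (0.71). *Il17f* and *Il22* had 35 and 14 UMIs in all. Among the 10 follicular helper genes with 50 UMIs, *Pdcd1* was past 2-fold higher and *Izumo1r* (113 and 54.8 CPM) past 2-fold lower, by -1.04, which was -0.94 after thinning, and *Il21* was at 37.5 and 42.9 CPM (0.19, -0.33 to 0.72). Of the 4 Th2 genes with 50 UMIs, none was past 2-fold. *Il10*, an inhibitory cytokine, was at 26.8 and 10.6 CPM on 45 and 16 UMIs from 21 and 6 cells.

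Of 17 cytokine and chemokine genes, 9 were higher and 8 lower (47.9% higher over all genes). *Ccl4* was at 142 and 427 CPM (1.58, 1.37 to 1.804), in 36 and 88 cells, and *Ccl3* at 29.8 and 114 CPM in 30 and 55 cells. Without predicted doublets the ratio of *Ccl4* was 0.52 and that of *Ccl3* -0.042. *Ccl5*, the most abundant gene of the list, was at 670.3 and 836 CPM (0.32), and with a minimum of 2 *Cd4* UMIs its ratio was -0.33, so that the direction turned. *Ccl1*, a ligand of CCR8 that stood among the genes most above all other kept cells, was at 62.0 and 282 CPM and came from 14 and 11 cells. Of *Xcl1* (32.8 and 133 CPM), 77.6% of the anti-CD9 Ab UMIs came from 1 cell, and without the top cells its ratio was 0.18. In the 10 cytotoxic genes with 50 UMIs, 3 were past 2-fold higher (2.62% over all genes), *Xcl1*, *Gzma* and *Klrd1*. *Gzma* came from 9 and 11 cells and passed the filter of 50 UMIs largely through the anti-CD9 Ab library. *Klrd1*, a receptor of NK and cytotoxic cells, stood at 33.4 and 84.6 CPM in 32 and 65 cells.

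The 38 interferon-stimulated genes had a median log2 ratio of 0.02, close to that of all genes, with 20 higher and 18 lower. The 4 past 2-fold higher were *Ifitm1*, *Ifitm2*, *Ifitm3* and *Gbp2*. *Ifitm3*, an antiviral membrane protein, stood at 141 and 523 CPM (1.89, 1.68 to 2.10) and was found in 9.50% and 25.3% of thinned cells, 4.38% and 11.5% of CD8 T cells, 1.97% and 7.32% of γδ T cells and 4.68% and 8.05% of B cells. *Ifitm3* was thus found more often with anti-CD9 Ab in Foxp3-negative CD4, CD8 and γδ T cells. The same held under the microglia rule (12.4% and 46.2%) and the neutrophil rule (38.5% of 13 cells and 72.3% of 723 cells). The B cell difference (3.37 points, -1.28 to 6.62) was no larger than counting error. *Gbp2*, an interferon-induced GTPase, was at 52.4 and 151 CPM (1.53). *Ifit1* was at 96.5 and 94.5 CPM (-0.03), *Isg15* at 148 and 218 CPM (0.56), and *Ifit3* at 89.4 and 48.2 CPM (-0.89, -1.31 to -0.48). None was past 2-fold lower.

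Promoters of this list were searched for a form of the interferon-stimulated response element (GAAA, any 2 bases, GAAA) and TTCNNNGAA, a form of the interferon-γ-activated site, both on either strand. The response element was present in 18 of the 29 genes with a promoter (62.1%) against 3.99% of all gene symbols, and TTCNNNGAA in 7 (24.1%) against 9.55%. Both were present in 5. The promoters of *Ifit1*, *Isg15* and *Gbp2* are shown because they hold the same element while their ratios ran from -0.03 to 1.53. Capitals mark the response element on either strand, in the same windows and build.
*Ifit1*, chr19:34640769-34640908, plus strand: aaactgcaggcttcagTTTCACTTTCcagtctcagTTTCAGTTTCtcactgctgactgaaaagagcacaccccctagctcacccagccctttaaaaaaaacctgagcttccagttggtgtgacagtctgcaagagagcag
*Isg15*, chr4:156200799-156200938, minus strand: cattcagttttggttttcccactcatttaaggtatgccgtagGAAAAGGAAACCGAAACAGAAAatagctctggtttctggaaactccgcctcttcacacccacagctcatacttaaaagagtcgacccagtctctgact
*Gbp2*, chr3:142620543-142620682, plus strand: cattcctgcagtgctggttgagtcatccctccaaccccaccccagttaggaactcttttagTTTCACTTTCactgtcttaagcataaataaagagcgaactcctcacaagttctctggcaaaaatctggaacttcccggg
*Ifit1* held 2 matches, *Isg15* 3 overlapping ones and *Gbp2* 1.

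Glycolytic genes were higher by small amounts. Of the 16 genes, 15 were higher (47.9% over all genes), with a median of 0.56. The 2 past 2-fold (2.62% over all genes) were *Slc16a3*, a lactate transporter (5.96 and 28.4 CPM, on 53 UMIs), and *Hk2*, a hexokinase (13.7 and 30.4 CPM, on 69 UMIs). Both passed the filter of 50 UMIs largely through the anti-CD9 Ab library. *Ldha*, which makes lactate, was at 293 and 437 CPM (0.58), *Pgk1* at 142 and 246 CPM (0.79), and *Gapdh*, the most abundant, at 626 and 702 CPM (0.17). *Hk1* had the lowest ratio (-0.33, -0.68 to 0.02). The summed level was 2585 and 3435 CPM here and 2113 and 3292 CPM in CD8 T cells. It was 2460 and 4139 CPM in γδ T cells, 2704 and 3806 CPM in Foxp3-positive cells and 1098 and 1239 CPM in B cells. Under the microglia rule it was 2396 and 4538 CPM, and under the neutrophil rule 4180 and 4503 CPM. It was thus higher in the anti-CD9 Ab library under each of these rules.

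Among the IL-2 and IL-7 family signalling genes, *Socs3*, a feedback inhibitor of cytokine signalling, was at 12.5 and 54.2 CPM (2.11, 1.41 to 2.88) and was the only one of 20 past 2-fold. *Socs3* passed the filter of 50 UMIs largely through the anti-CD9 Ab library. *Il7r* was at 415 and 762 CPM (0.88) and *Bcl2* at 337 and 277 CPM (-0.28). Of the 12 NF-κB feedback genes, 10 were higher (47.9% over all genes), none past 2-fold. *Nfkbia* was at 381 and 578 CPM (0.60) and *Tnfaip3* at 81.0 and 143 CPM (0.82), while *Nfkbid* was past 2-fold lower (51.8 and 22.5 CPM). The 20 immediate early and heat shock genes with 50 UMIs, a list that can respond to dissociation, had a median of -0.06. *Fos* was at 29.2 and 8.59 CPM on 62 UMIs and *Fosl2* at 13.1 and 35.01 CPM on 75 UMIs. *Fos* passed the filter largely through the control Ab library and *Fosl2* largely through the anti-CD9 Ab library.

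*Cd9*, the antigen of the antibody, was at 243 CPM with control Ab and 102 CPM with anti-CD9 Ab (-1.25, -1.52 to -0.98). Its thinned share was 13.4% and 7.37%, against 14.6% and 10.3% in B cells, 16.4% and 10.0% in CD8 T cells and 14.7% and 7.02% in γδ T cells, and 88.0% and 48.1% in microglia. In Foxp3-positive CD4 T cells it was 2.56% and 21.7%, on 1 of 39 and 5 of 23 cells. With control Ab, 4 Foxp3-negative CD4 T cells had 20 or more *Cd9* UMIs, the highest 55. The shares lay close to those of B, CD8 and γδ T cells, and the part of free RNA in them was not tested. *Cd81* (112 and 48.2 CPM) and *Cd63* (123 and 50.2 CPM) were also past 2-fold lower. The list of tetraspanins and their integrin partners summed to 2391 and 2150 CPM here, and to 9736 and 4158 CPM under the microglia rule. It was 2580 and 2186 CPM in CD8, 2025 and 1541 CPM in γδ and 2283 and 2375 CPM in Foxp3-positive T cells, and 1461 and 1803 CPM in B cells. The part of free RNA in *Cd81* and *Cd63* was not tested. *Cd53*, a tetraspanin of leukocytes, was at 304 and 465 CPM (0.61), and the most abundant gene of the list, *Itga4*, at 435 and 410.3 CPM (-0.08).

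The lists of other lymphoid cells had few measured genes. Of the regulatory T cell list, 10 genes had 50 UMIs, of which *Tnfrsf9* was past 2-fold higher and *Il10* past 2-fold lower, with a median of 0.30. Of the CD8 list 4 genes had 50 UMIs, of the γδ list 2 and of the list of natural killer and innate lymphoid cells 2, and *Klrd1* was the single gene of these past 2-fold.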

How the data were processed

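Raw UMI counts per gene and cell were deposited by the authors as 1 sparse matrix per library, made with Cell Ranger 8.0.0 and GRCm39 per the submitters' processing notes. The methods name an earlier pipeline version and build. The deposited matrices held 12245 and 15173 barcodes (medians 1816 and 1667 UMIs). Chemistry was 3′ gene expression, so that counts mark transcript ends.

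Cells and gene lists were chosen with earlier results of these data known. Counts of cells passing the rule were summed per library and scaled to CPM. Log2 ratios carry exact conditional binomial intervals, shares exact Clopper-Pearson intervals and differences of shares Newcombe intervals, all at 95%. A zero was set to 3 counts in a ratio. Genes with 50 or more UMIs over both libraries were compared, so that a gene low in 1 library could pass through the other. Cells were thinned to 1000 UMIs for shares of cells with a UMI, which left out 44 and 9 Foxp3-negative CD4 T cells. Doublets were not removed: simulated doublets, 30 components and 50 neighbours marked 7.10% and 8.61% of the cells (0.8% per 1000 barcodes).

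Named genes were those of the rule, the markers *Trac*, *Cd28*, *Icos* and *Cd5*, per list (27 lists) the most abundant and the 3 highest and 3 lowest ratios with 50 UMIs (helper factors and cytokines whatever their counts), the 10 highest and lowest ratios with 200 UMIs, the 10 most above and below each other T cell rule, and the 15 most above all other kept cells. The alternatives covered filters, the rule, scaling and depth. Chosen after seeing the data were leaving out cells carrying other lineages (50 or more immunoglobulin UMIs, or 10 or more of *H2-Aa*, *H2-Ab1* and *Cd74*) or the top cell of a gene, the class with 10 cell cycle UMIs, the *Ifng* and *Il17a* classes, the promoters shown and the motifs of the cell cycle list. The ratio code was tested on simulated data. Python 3.11.15, numpy 2.4.6 and scipy 1.17.1 were used. Promoters came from RefSeq (GRCm38.p6).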

Additional observations from a re-analysis of the deposited data

Results flagged for a closer look

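Genes are listed here where the ratio of anti-CD9 Ab to control Ab pointed one way in Foxp3-negative CD4 T cells and the other way in CD8 or γδ T cells, with both counting intervals clear of 0. With 1 library per antibody the difference was not tested. *Il17a* had a log2 ratio of -0.27 in Foxp3-negative CD4 T cells and 2.56 in γδ T cells, and its Foxp3-negative CD4 value rests on 86 and 51 cells. Without cells carrying other lineages that value was 0.05, so that the direction turned. The share of thinned γδ T cells with *Il17a* was 19.2% and 24.1% (4.93 points, 1.83 to 8.13). *Il10* had -1.34 here and 3.51 in CD8 T cells, on 45 and 16 UMIs here, and the CD8 value rests on 0 of 525 and 2 of 270 thinned cells with the gene. *Ikzf2* had -0.37 here and 0.62 in CD8 T cells. *Ttr* had 4.68 here and -2.56 in γδ T cells, and 1 cell held 92.1% of its UMIs with anti-CD9 Ab. *Mzb1* had -6.57 here against 1.42 in CD8 T cells and 0.87 in γδ T cells, *Igha* -6.17 against 2.21 in CD8 T cells, and *Igkc* -5.95 against 0.59 in CD8 T cells. Of the immunoglobulin UMIs in Foxp3-negative CD4 T cells with control Ab, 43654 of 44912 lay in 5 cells. Without cells carrying other lineages, the *Igha* ratio was 0.24.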

How the results depend on the processing

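No paired analysis was possible because each antibody had 1 library, and for the same reason no replicate could be left out. Where a value moved, the cause was not tested unless fewer cells or genes entered by construction. With at most 2% mitochondrial UMIs the share of kept cells was 5.52% and 2.18% (control Ab, anti-CD9 Ab), the medians were 1.85 for the cell cycle list, 0.51 for Th1 genes and 0.25 for interferon-stimulated genes, and the *Il17a* share with anti-CD9 Ab was 4.06%. The genes past 2-fold were then 37 higher and 16 lower than in Foxp3-positive cells, 60 and 25 than in CD8 T cells, and 135 higher than in γδ T cells. With 3 CD3 UMIs the control Ab share was 5.69%. With 2 *Cd4* UMIs the shares were 1.38% and 1.20%, the genes past 2-fold with anti-CD9 Ab 125 higher and 66 lower, the cell cycle median 2.31, the Th1 median 0.18 and the *Ttr* ratio -0.47. With *Il2ra* and *Ikzf2* also at 0 the shares were 4.32% and 2.41%, the lower genes 96, and the medians 1.00 for cell cycle and 0.23 for Th1 genes. Thinning to 1000 UMIs, which left out cells under that depth, gave shares of 3.68% and 2.05% of thinned cells. It gave 78 higher and 72 lower genes, and medians of 0.98 for cell cycle and 0.22 for Th1 genes. A minimum of 20 UMIs gave 417 higher and 543 lower genes, and one of 200 UMIs 58 and 35 with a cell cycle median of 1.37. As a mean over cells of counts per 10000 that median was 1.32. Without predicted doublets the interferon median was -0.085 and the *Ccl3* ratio -0.042. Without cells carrying other lineages the shares of the remaining kept cells were 5.94% and 3.48%, with 189 higher and 166 lower genes. The medians were then 1.44 for cell cycle, 0.29 for Th1 and -0.02 for interferon-stimulated genes. The ratios were 0.24 for *Igha*, -0.70 for *Ly6c2* and -1.57 for *Cxcr3*. The *Ifng* share was 18.6% and 21.6% at 2000 UMIs and 16.9% and 21.9% without thinning, and the *Il17a* share 12.0% and 9.98% without thinning. The cell cycle list kept a positive median in each alternative. For 65 single genes, 778 values were computed under the alternatives, and some changed direction. *Ccl5* went from 0.32 to -0.33 with a minimum of 2 *Cd4* UMIs. *Il2*, on few UMIs, went from -0.85 to 0.75 with at most 2% mitochondrial UMIs.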
